A study of Mus musculus with 18 samples.

Results

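H3K9me2, the dimethylated form of lysine 9 of histone H3, is typical of repressed chromatin and is written mainly by the G9a and GLP methyltransferases. Much of it lies at the nuclear lamina, a meshwork of lamins under the inner nuclear membrane that holds gene-poor, silent sequence. The sequence described here is the opposite case. It comprises stretches in an H3K9me2 domain of mouse embryonic stem cells (ESC) and in no H3K9me2 domain of cardiomyocytes (CM) made from ESC. They also lay in no Lamin B domain of either cell type. On a grid of 1 kb bins over chromosomes 1 to 19, 505 unbroken stretches of at least 20 kb met this rule, out of 6705 stretches of that length with a single state in the 4 domain lists. They are called ESC-only stretches below. They held 41.8 Mb, which was 1.75% of the 2391 Mb that the domain lists span and 3.44% of all ESC H3K9me2 sequence.

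The series holds 18 ChIP-seq libraries, made with antibodies to Lamin B and to H3K9me2 or from input chromatin. Wild-type ESC were grown without serum or feeder cells in 2i medium, which holds LIF, CHIR and PD325901. Wild-type CM were made from ESC as embryoid bodies, with VEGF, Activin A and BMP4 and later VEGF, bFGF and XAV, and were collected on day 10. The labels name no step that separated cardiomyocytes from other cells of these bodies, so a CM value may cover a mixed culture. A second line, derived from blastocysts and kept on feeder cells with LIF, was CMV-creERT; Hdac3f/f, so that tamoxifen deletes the gene of the histone deacetylase HDAC3. Untreated cells of this line were used, and so were cells given tamoxifen (1 µg/ml) during 24 h.

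The 4 domain lists used stood for several libraries each. The labels name the ESC H3K9me2 list for 2 wild-type and 2 floxed, untreated libraries. The ESC Lamin B list is named for 2 wild-type, 2 floxed and 2 Hdac3-deleted libraries, and each CM list for 2 wild-type libraries. The way in which libraries were joined into a list is not stated, and the ESC lists may therefore mix genotypes. They may also mix culture conditions, since the floxed line was kept on feeder cells and the wild-type ESC were not. To that extent, a difference of cell type between ESC and CM lists cannot be told apart from one of line or culture. The lists carry no value per library. The sequencing depth is therefore unknown, no spread between replicates can be given, and every comparison below is a description without a test. In such bulk samples, fewer cells with the mark and less of the mark per cell cannot be told apart. Only domain positions were used, so the cell types could not be checked against marker genes. The membership itself came from the measured domains, so the presence of ESC H3K9me2 and the lack of CM H3K9me2 in these stretches is not a finding. No annotation or sequence of the mouse build of the lists (mm9) was used, and stretches are named by position only.

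Of the 505 ESC-only stretches, 414 (82.0%, Wilson 95% interval 78.4 to 85.1) coincided with a complete ESC H3K9me2 domain and had no domain of any list next to them, for 36.5 Mb in all. In a further 68 stretches (4.34 Mb), H3K9me2 of both cell types continued at 1 end, so that an ESC domain was shortened in CM rather than absent. Another 17 stretches (0.779 Mb) ran up to a Lamin B domain, and 6 (0.28 Mb) lay inside an ESC domain that CM kept on both sides. The share of whole domains depended on which domains and stretches were admitted. It was 49.7% when ESC domains under 120 kb were left out and 30.1% when ESC domains below the list's median score were left out. A longer minimum length of the stretches raised it instead, to 89.1% at 40 kb, 91.4% at 50 kb and 89.7% at 100 kb. A minimum of 10 kb gave 60.5%. The whole domains had a median length of 80 kb and the shortened edges one of 40 kb. Intervals of shares cover counting error only and treat domains as independent, which neighbouring domains may not be.

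ESC-only stretches were short. Their lengths ran from 20 to 400 kb with a median of 80 kb, and the middle of the distribution was narrow, with quartiles at 60 and 100 kb. The commonest length, 70 kb, was that of 82 stretches. Stretches of at least 100 kb numbered 146 (28.9%) and held 19.4 Mb, and 9 stretches reached 200 kb. Just inside the length limit, 30 stretches measured 20 to 29 kb, and just outside it 179 measured 10 to 19 kb and held 1.83 Mb. Because ESC H3K9me2 domains were drawn in bins of 10 kb, 489 of the 505 lengths were multiples of 10 kb.

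**Figure D1:**
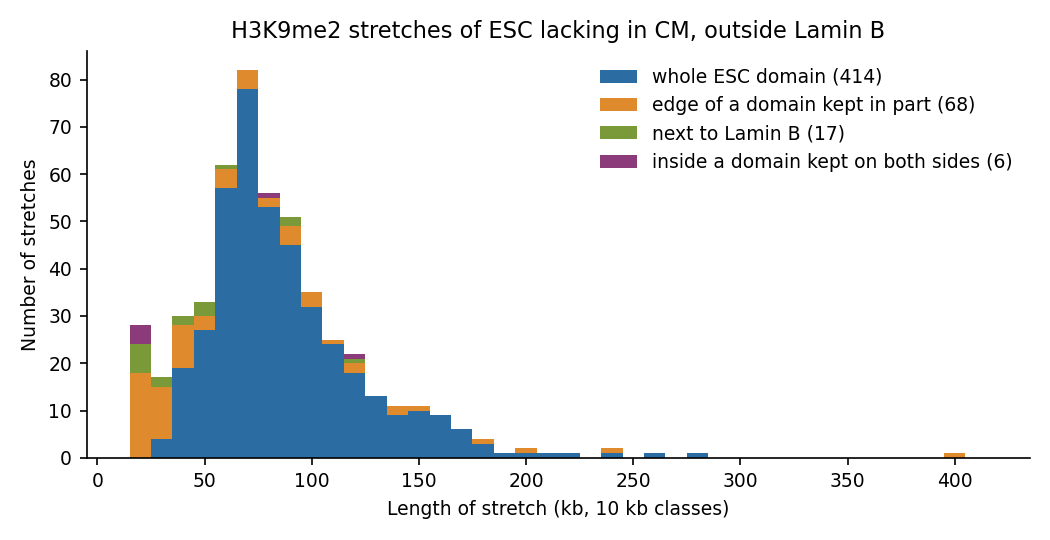
Number of ESC-only H3K9me2 stretches (vertical axis) by length in kb (horizontal axis, classes of 10 kb), stacked by what lay at their ends. The 414 whole ESC domains form the peak at 70 kb, whereas the 68 edges of partly kept domains are mostly shorter, with a median of 40 kb.

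The CM list held few domains of such lengths anywhere, and this bears on every count given here. On chromosomes 1 to 19 the 1140 CM H3K9me2 domains, drawn in bins of 20 kb, had a median length of 460 kb, and the 2431 ESC domains had one of 140 kb. Domains under 100 kb made up 1.58% of the CM list (18 domains) and 33.3% of the ESC list (810 domains). The 5th percentile of CM domain length was 120 kb, and 419 of the 505 ESC-only stretches (83.0%) were shorter than that. The shortest CM domain measured 40 kb, and 45 stretches were shorter still. A true loss of the mark from a short ESC domain and a short domain that the CM list would not draw cannot be told apart in these files. When ESC domains shorter than 120 kb were left out, an alternative chosen after seeing the data, 151 stretches (16.0 Mb) remained above the 20 kb limit.

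The H3K9me2 that CM lacked lay mostly outside the lamina domains. CM lacked H3K9me2 on 44.0 Mb of the 197.2 Mb of ESC H3K9me2 outside Lamin B, or 22.3%. This share moved with the domains admitted. It was 8.53% with ESC domains at or above their median score, 11.9% without ESC domains under 120 kb, and 49.3% with CM domains at or above their median score. Of the 1019 Mb inside a Lamin B domain of either cell type, CM lacked 1.44% with all domains admitted. The alternatives were computed for the share outside Lamin B only. The shares inside and outside were not matched for domain length, and what length adds to their difference was not tested. The ESC-only stretches made up 71.3% of all ESC H3K9me2 sequence that CM lacked on these chromosomes, and 95.2% of what it lacked outside Lamin B.

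The ESC domains that CM lacked were shorter than those it kept, with a median of 80 against 120 kb. Of the 2431 ESC domains, 1031 lay wholly outside Lamin B, and 414 of these (40.2%, 37.2 to 43.2) had no CM H3K9me2 at all. A further 133 were kept in part, which an overlap of any length sufficed for, and 484 in full. A longer domain has more room for such an overlap. What this adds to the lower shares at greater length was not tested. Among domains of 70 to 80 kb, 131 of 201 were absent from CM (65.2%, 58.4 to 71.4), well above the 40.2% of all lengths. Between 90 and 100 kb the count was 77 of 170 (45.3%, 38.0 to 52.8), and between 130 and 150 kb it was 32 of 110 (29.1%, 21.4 to 38.2). Only 5 of the 79 domains of 210 to 300 kb were absent (6.33%, 2.73 to 14.0). None of the 79 domains above 300 kb was absent from CM, a count that allows a share of up to 3.80%. CM kept 28 of these long domains in part and 51 in full. No such fall was seen below 80 kb, where the shares were 62.2% (23 of 37) up to 40 kb and 55.6% (84 of 151) at 50 to 60 kb.

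**Figure D2:**
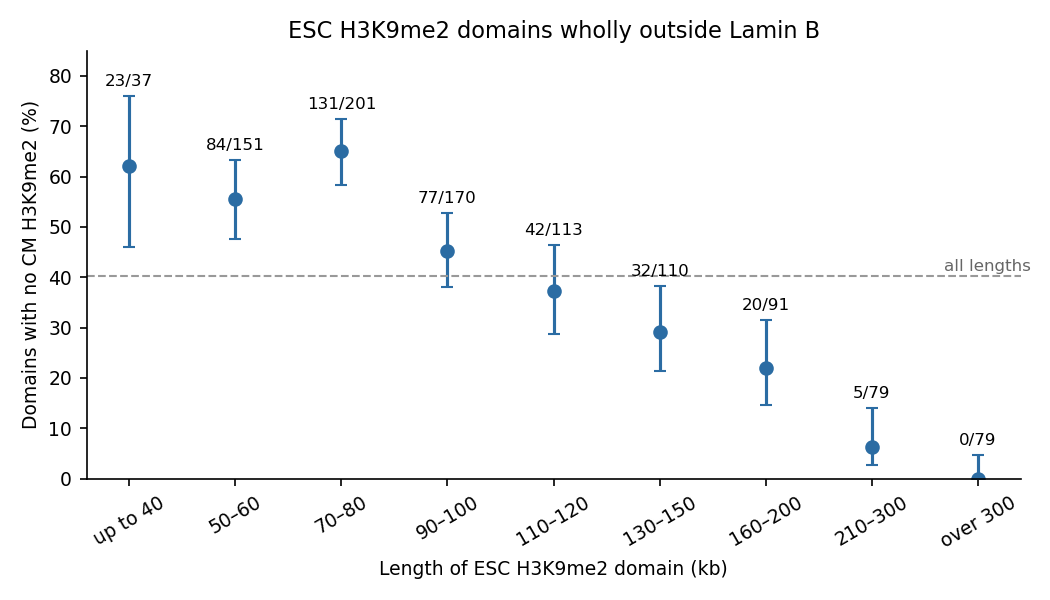
Share of ESC H3K9me2 domains lying wholly outside Lamin B that had no CM H3K9me2 (vertical axis, %), by domain length (horizontal axis, kb), with Wilson 95% intervals and the counts above each point. The dashed line is the 40.2% of all 1031 domains, and the points go from 65.2% at 70 to 80 kb to 0 of 79 above 300 kb.

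The domains absent from CM were weak ones in the authors' own ranking. The deposited score of a domain, whose scale is not stated, tended to grow with its length. The 414 whole domains had a median score of 2.22 (1.55 to 10.5), against 3.49 for the other 617 ESC domains outside Lamin B and 4.06 for the whole ESC list. Of the 414, 383 (92.5%, 89.6 to 94.7) scored below that list median, compared with 357 of the other 617 (57.9%, 53.9 to 61.7).

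At equal length the gap was smaller. Of 14 lengths from 40 to 170 kb that had at least 5 domains of each kind, 12 had a lower median score in the absent domains. The ratio of the medians, absent over other, ran from 0.563 to 1.03 with a median of 0.890. At 70 kb the 78 absent domains had a median of 2.09 (1.56 to 3.70) and the 35 others one of 2.31 (1.66 to 3.88), so the ranges overlapped almost completely. At 130 kb the medians were 2.79 for 13 absent domains and 3.63 for 33 others, and at 100 kb they were 2.85 for 32 and 2.78 for 44, in the opposite order. The lowest ratio, at 140 kb, rested on 9 absent domains.

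**Figure D3:**
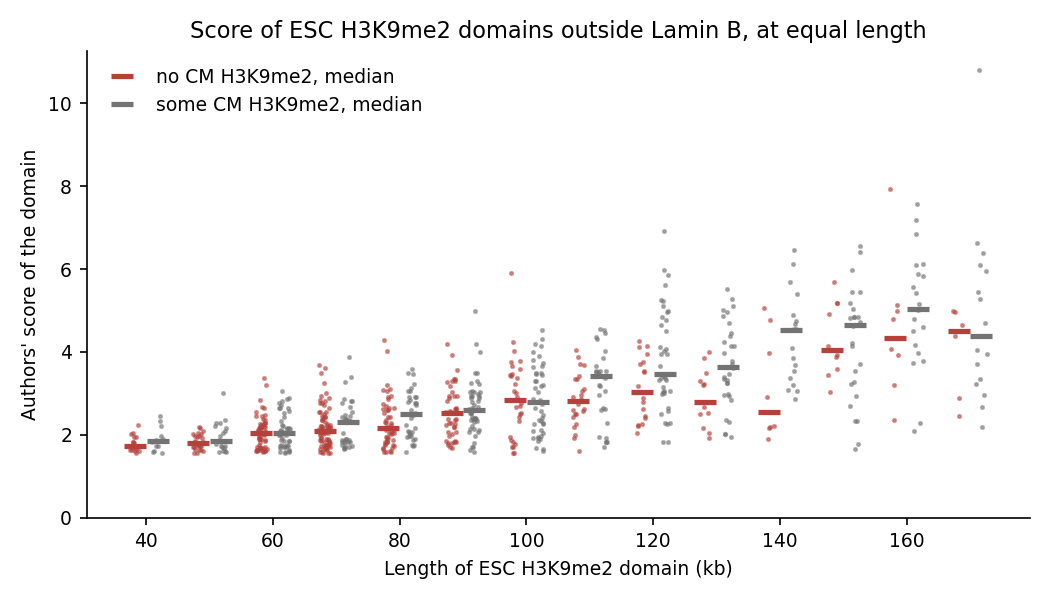
The authors' score of each ESC H3K9me2 domain outside Lamin B (vertical axis) at the 14 lengths compared (horizontal axis, kb), for domains with no CM H3K9me2 and domains with some; dots are domains and bars their medians. The bar of the absent domains is the lower one at 12 of 14 lengths, and the clouds overlap at each length shown.

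ESC-only stretches lay far from the lamina more often than next to it. The nearest Lamin B domain of either cell type was at a median distance of 404 kb (quartiles 138 and 1370 kb, maximum 9.05 Mb). It was over 1 Mb away for 164 stretches (32.5%, 28.5 to 36.7) and within 50 kb for 73 (14.5%, 11.7 to 17.8). H3K9me2 that both cell types carried outside Lamin B, 973 stretches holding 151.3 Mb, sat closer, at a median of 107 kb with 433 stretches (44.5%, 41.4 to 47.6) within 50 kb. At least 1 in 4 of those common stretches adjoined a Lamin B domain, which 17 of the 505 ESC-only stretches did. A stretch is cut where a Lamin B domain begins, so the part of a domain left outside adjoins Lamin B by construction. The comparison of stretches is therefore not one of whole domains, which follows.

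Among ESC domains wholly outside Lamin B, those absent from CM lay at a median of 472.5 kb from Lamin B and the others at 540 kb. This order changed between lengths without a steady trend. Up to 100 kb in length, absent domains lay farther away (442 against 312 kb), and from 100 kb upward they lay nearer (551 against 707 kb). Domains of exactly 100 kb are counted in both of these classes. The 707 kb includes the 79 domains above 300 kb, at a median of 1053 kb, of which none was absent. At 110 to 200 kb the medians were close (576.5 against 584.5 kb). Narrower classes went either way, with 444 against 482 kb at 90 to 100 kb and 718 against 487.5 kb at 130 to 150 kb. Within the length class of 60 to 100 kb, where 265 of 474 domains (55.9%) were absent, CM lacked 43 of 102 domains (42.2%, 33.0 to 51.9) within 100 kb of Lamin B. From 100 to 500 kb away it lacked 95 of 152 (62.5%, 54.6 to 69.8), from 500 to 2000 kb 77 of 135 (57.0%, 48.6 to 65.1), and beyond that 50 of 85 (58.8%, 48.2 to 68.7). The interval of the nearest class was clear of that at 100 to 500 kb and overlapped those of both farther classes. Among domains of 110 to 200 kb, CM lacked 12 of 57 (21.1%) within 100 kb of Lamin B. The shares in the farther classes were 32.2%, 31.7% and 31.8%, with intervals that overlap that of the nearest.

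Absent domains stood farther from other ESC H3K9me2. In the length class of 60 to 100 kb, the nearest other ESC H3K9me2 domain was at a median of 90 kb from an absent domain and 40 kb from the others. Among domains of 110 to 200 kb the medians were 110 kb and 50 kb. The CM list had fewer and longer domains, and a long CM domain can cover several close ESC domains along with the gaps between them. What this contributes was not tested.

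Distances to CM H3K9me2 come from the list that defined the stretches, and they are given without a comparison. The nearest CM H3K9me2 domain was at a median of 120 kb from an ESC-only stretch, over 100 kb away for 269 stretches (53.3%, 48.9 to 57.6) and over 1 Mb away for 45 (8.91%, 6.73 to 11.7). It adjoined 74 stretches and lay within 20 kb, a single CM bin, of 52 more. Extending every CM domain by 20 kb at each end left 469 stretches and 39.9 Mb of the 41.8 Mb.

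ESC-only stretches lay at a median of 640 kb from ESC Lamin B and 456 kb from CM Lamin B. The distances to the nearest ESC and the nearest CM Lamin B domain differed by at most 50 kb for 262 of the 505 stretches (51.9%, 47.5 to 56.2). That share was 50.6% (47.4 to 53.7) for H3K9me2 of both cell types and 50.5% (47.1 to 53.8) for H3K9me2 of CM only. The CM domain was closer by over 50 kb for 175 stretches (34.7%, 30.6 to 38.9) and the ESC domain for 68 (13.5%, 10.8 to 16.7). Stretches with H3K9me2 in both cell types gave 39.0% (35.9 to 42.1) and 10.5% (8.71 to 12.6), with intervals that overlap those of the ESC-only stretches. For H3K9me2 of CM only the shares were 40.9% (37.6 to 44.2) and 8.67% (6.96 to 10.7). The first interval overlaps that of the ESC-only stretches, and the second lies just below theirs. A CM Lamin B domain nearer than the ESC one was thus found beside ESC-only stretches no more often than beside H3K9me2 common to both cell types. An ESC Lamin B domain nearer than the CM one was found more often beside ESC-only than beside CM-only stretches.

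Sequence with H3K9me2 in CM only, also outside Lamin B, had another form. It comprised 854 stretches and 66.2 Mb with a median length of 50 kb. Of the 384 CM domains wholly outside Lamin B, 48 (12.5%, 9.56 to 16.2) had no ESC H3K9me2, against the 40.2% of ESC domains without CM H3K9me2. For domains of at least 100 kb, the shares were 44 of 372 in CM (11.8%, 8.93 to 15.5) and 131 of 548 in ESC (23.9%, 20.5 to 27.6). From 200 kb upward the order was the opposite, with 20 of 235 in CM (8.51%, 5.58 to 12.8) and 6 of 171 in ESC (3.51%, 1.62 to 7.44). The intervals overlap at that length. The shares above pool domains of unlike length. Above 100 and up to 120 kb, the ESC and CM shares were 37.2% and 31.0%. They were 29.1% and 18.8% above 120 and up to 150 kb, and 22.0% and 18.6% above 150 and up to 200 kb. In each of these classes the intervals overlap. Above 80 and up to 100 kb the counts were 77 of 170 and 0 of 12, with intervals apart. The excess of absent ESC domains over new CM domains was thus seen with lengths pooled and in this shorter class. At similar lengths above 100 kb it was within the intervals, and from 200 kb upward it was not seen.

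Chromosomes differed widely in how much lamina-free H3K9me2 CM lacked. The share had a mean of 22.0% ± 8.40 (SD over 19 chromosomes, which are not replicates) and a median of 19.5%. Chromosome 19 had the highest share, 43.1% of 5.54 Mb, with 25 ESC-only stretches or 4.31 per 10 Mb. Chromosome 6 came next at 35.2% of 11.9 Mb with 45 stretches. Chromosome 16 had the lowest, 4.62% of 2.38 Mb, and a single ESC-only stretch, 16:29460001–29550000 (90 kb).

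On chromosomes 6, 8, 11, 14 and 19, and on no other autosome, H3K9me2 outside Lamin B covered less sequence in CM than in ESC. CM had 0.782 times the ESC amount on chromosome 19, 0.845 on 6, 0.860 on 11, 0.922 on 8 and 0.975 on 14. Shares lacked by CM were 27.8% on chromosome 11, 27.3% on 8 and 25.7% on 14, and these 5 chromosomes carried 191 of the 505 stretches. Their densities were 3.05 to 4.31 stretches per 10 Mb, against a median of 1.88 over the 19 autosomes. The other 13 chromosomes apart from 16 had shares of 14.3% to 29.8% and CM amounts of 1.06 to 1.26 times those of ESC. The difference was also seen at 1 length class. Among ESC domains of 60 to 100 kb outside Lamin B, 91 of 122 (74.6%, 66.2 to 81.5) were absent from CM on these 5 chromosomes, 173 of 341 (50.7%, 45.4 to 56.0) on the other 13 and 1 of 11 (9.09%, 1.62 to 37.7) on chromosome 16. Single chromosomes among the 5 ran from 68.8% (chromosome 14) to 80.8% (chromosome 8) in this length class. Among the other 13 they ran from 43.5% (chromosome 10) to 73.9% (chromosome 9, 17 of 23 domains), so the ranges overlap. The 5 chromosomes were chosen from the same values, so these shares are a description.

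On chromosome 16 the ESC list, rather than the CM list, was out of the ordinary. ESC H3K9me2 covered 5.33% of its lamina-free sequence, against 11.2% to 21.8% on the other 18 autosomes, whereas its CM coverage of 23.3% was inside the range of 11.7% to 25.4% of those 18. CM H3K9me2 outside Lamin B thus came to 4.38 times the ESC amount on this chromosome. Of its 19 ESC domains wholly outside Lamin B, 17 were kept in full, 1 in part and 1 was absent. The cause of the low share that CM lacked on this chromosome was not tested.

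**Figure D4:**
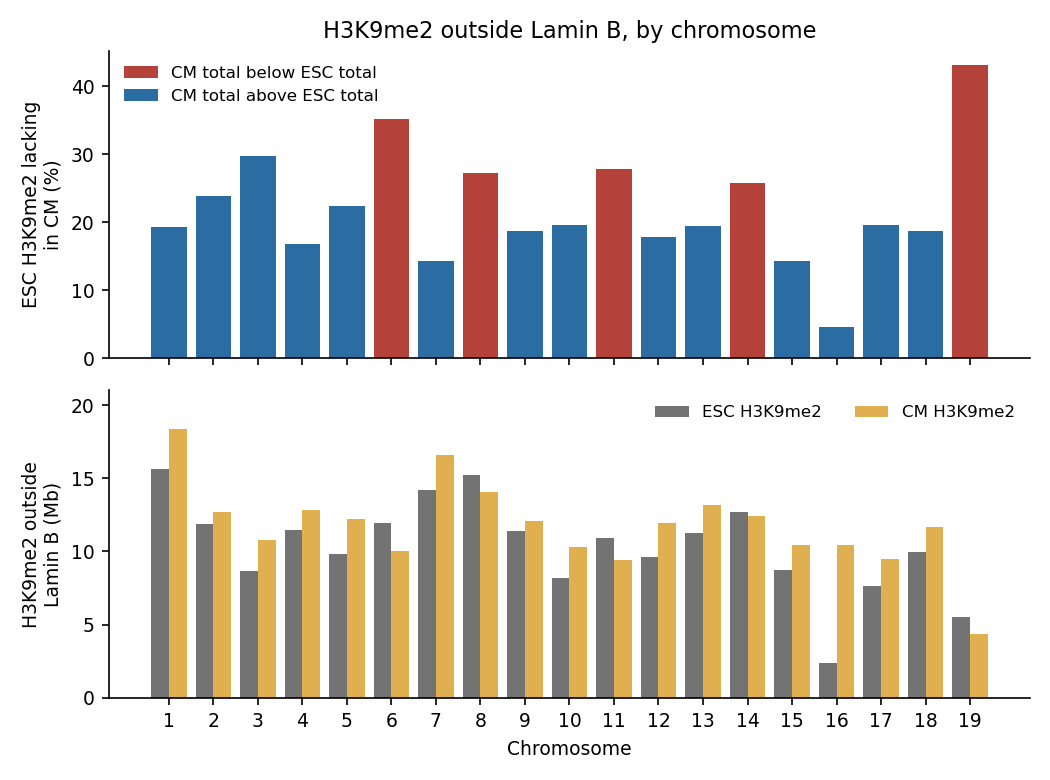
Share of ESC H3K9me2 outside Lamin B that CM lacked (upper panel, %) and the amount of H3K9me2 outside Lamin B in ESC and CM (lower panel, Mb), for chromosomes 1 to 19, with red bars in the upper panel where CM had less than ESC in total. Chromosome 19 is highest at 43.1% and chromosome 16 lowest at 4.62%, where the ESC bar of 2.38 Mb is also the shortest of the ESC bars.

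Along the chromosomes the stretches were spread without a strong preference for either end. When each chromosome was divided into 5 equal segments from its first to its last domain, the segments held 75, 133, 109, 102 and 86 stretches. The share of lamina-free ESC H3K9me2 that CM lacked was 21.2%, 24.0%, 25.5%, 23.2% and 18.1% in the same order. The lowest share was in the last segment. A total of 4 stretches ended at the last domain end of their chromosome, among them 11:121590001–121660000 (70 kb), which lay 9.05 Mb from the nearest Lamin B domain and 8.75 Mb from the nearest CM H3K9me2.

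ESC-only stretches often had another nearby. The gap to the next stretch on the chromosome was 10 kb to 40.1 Mb with a median of 1.86 Mb, and it was under 1 Mb for 186 of 486 neighbouring pairs (38.3%, 34.1 to 42.7). Joined across gaps under 1 Mb, the 505 stretches formed 319 runs, of which 200 held a single stretch and 119 held at least 2. The 17 runs of 4 or more held 80 stretches. Of the 821 intervals between Lamin B domains, 644 held ESC H3K9me2 and 265 had an ESC-only stretch. The 265 had a median length of 1872 kb, against 267 kb for intervals without such a stretch, and 17 of them had at least 5 stretches. A longer interval has more room for stretches. The spacing of other ESC domains is not given beside these counts, so they do not set ESC-only stretches apart. The interval with the most, 12, was 14:53449001–68904000 (15.5 Mb), followed by 13:40326001–49929000 (9.60 Mb) with 11.

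The run with the most stretches lay on chromosome 6. Between 6:92240001 and 6:95160000 (2.92 Mb) there were 7 ESC-only stretches of 60 to 150 kb, 700 kb in all, with no Lamin B domain of either cell type. ESC H3K9me2 covered 1120 kb of this run and CM H3K9me2 460 kb, of which 410 kb were common. The longest of the 7 were 6:92240001–92390000 (150 kb) and 6:94260001–94390000 (130 kb). Toward its distal end the run approached a lamina domain, and the last stretch, 6:95080001–95160000 (80 kb), was 42 kb from Lamin B of ESC and 20 kb from CM H3K9me2.

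In other runs no H3K9me2 remained in CM. On chromosome 13, 5 stretches of 60 to 80 kb made up all 350 kb of ESC H3K9me2 in 13:45180001–46590000, at 3339 to 4689 kb from any Lamin B domain, and CM H3K9me2 there was 0 kb. The same held for 460 kb in 4 stretches at 2:76280001–77540000 and for 460 kb in 4 stretches at 19:23390001–24930000. It also held for 390 kb at 19:60310001–61150000 and for 370 kb at 1:152970001–154360000, again in 4 stretches each. At 8:36360001–37500000, by contrast, 5 stretches took up 400 of 450 kb of ESC H3K9me2 while CM had 280 kb, of which only 50 kb coincided with the ESC domains.

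The longest ESC-only stretch, 5:27580001–27980000 (400 kb), was part of a domain that CM kept at its proximal end. The ESC H3K9me2 domain 5:27410001–27980000 (570 kb, score 11.5) faced a CM domain at 5:27420001–27580000 of 160 kb. The neighbouring ESC domains at 5:28190001–28320000 and 5:28810001–29510000 each had a CM counterpart with edges within 10 kb. Lamin B lay 366 kb away in CM and 5.06 Mb away in ESC.

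The second longest, 8:130890001–131170000 (280 kb), was a whole ESC domain near the last domain end of chromosome 8, 566 kb from it. It lay between ESC H3K9me2 domains at 8:130140001–130880000, which CM kept with the same edges, and at 8:131260001–131720000, which CM lacked. Lamin B of CM covered 8:130592001–130878000 and 8:131252001–131736000, on either side of the stretch and 12 kb from it at the nearest, whereas the nearest ESC Lamin B was 14.9 Mb away. The distal flank thus had H3K9me2 without Lamin B in ESC and Lamin B without H3K9me2 in CM, whereas the stretch itself had neither in CM.

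**Figure D5:**
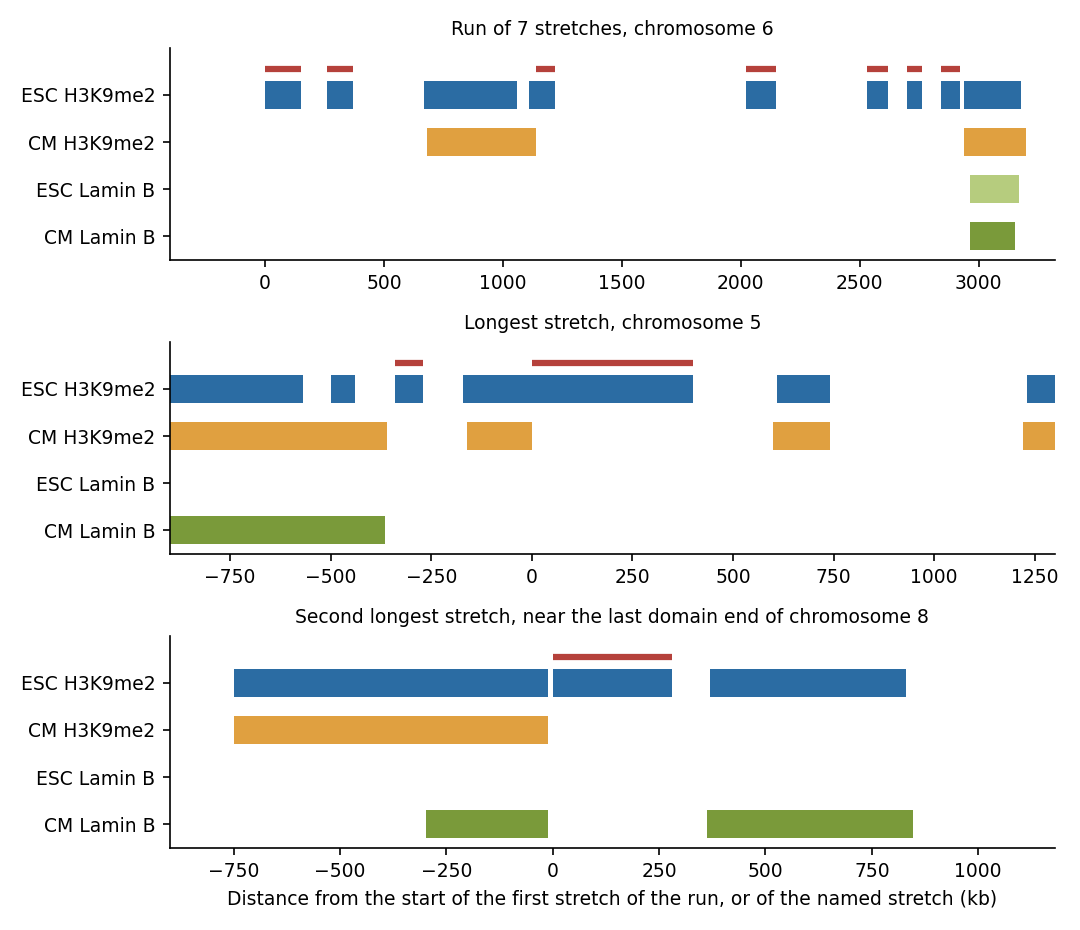
Domains of the 4 lists around the run of 7 stretches on chromosome 6, the longest stretch (chromosome 5) and the second longest (chromosome 8); the horizontal axis is distance in kb from the start of the run or of the named stretch, and red lines mark ESC-only stretches. In each panel the red lines lie over ESC H3K9me2 bars with nothing in the 3 rows beneath.

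The other 8 of the 10 longest stretches were of the same kinds. The stretch 19:28290001–28550000 (260 kb, score 8.63) was a whole domain 207 kb from CM and 210 kb from ESC Lamin B. So was 15:58320001–58560000 (240 kb, score 4.88), which stood over 1 Mb from Lamin B of either cell type and 800 kb from CM H3K9me2. The stretch 8:88860001–89100000 (240 kb) was an edge of a 630 kb ESC domain and lay 156 kb from CM Lamin B but 3.27 Mb from ESC Lamin B. Chromosome 3 had 3 whole domains on the list: 3:152150001–152370000 (220 kb), which had the highest score of the 414 at 10.5, 3:105260001–105470000 (210 kb) and 3:57980001–58170000 (190 kb). The last pair were 6:137150001–137350000 (200 kb), a whole domain 440 kb from ESC Lamin B, and 11:45340001–45540000 (200 kb), an edge of an 860 kb ESC domain that lay 7 kb from ESC and 9 kb from CM Lamin B.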

How the data were processed

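Reads came from ChIP-seq of mouse cells. Per the submitters' processing notes, STAR, Picard and deepTools were used with build mm9, without version numbers. The deposited values were 4 domain lists with the start and end of each domain and the authors' score, and the track headers state g 10, automatic bins and FDR 5%. Which program drew the domains is not given in the sources read. Groups came from the titles. In Python 3.11.15 (pandas 2.3.3, numpy 2.4.6) domains were laid on bins of 1 kb, and stretches and distances were checked on simulated lists. Intervals of shares are Wilson intervals at 95% (scipy 1.17.1), and figures used matplotlib 3.10.9. The lists have no replicates, so no test was made. The 10 longest stretches are named, and runs, chromosomes and intervals were singled out after their values were seen. The members and measures were chosen with earlier results of these data known. Input libraries and the Hdac3-deleted cells on their own were not analysed here. A RefSeq table of another build was not used.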

Additional observations from a re-analysis of the deposited data

Results flagged for a closer look

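The X chromosome was outside the rule and in none of the comparisons. It held 31 stretches of at least 20 kb with H3K9me2 in ESC only and outside Lamin B. These stretches came to 2.19 Mb with a median of 70 kb, and 28 of them stood apart from every other domain. CM lacked 54.6% of the 4.28 Mb of ESC H3K9me2 outside Lamin B on X, against 22.3% on the autosomes and 43.1% on chromosome 19.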

How the results depend on the processing

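The stretches were redrawn under 12 alternatives, of which leaving out ESC domains under 120 kb was chosen after seeing the data. With a minimum length of 100 kb there were 146 stretches (19.4 Mb), 89.7% of them standing apart, at a median of 518 kb from Lamin B, and the excess of ESC domains without CM H3K9me2 over CM domains without ESC H3K9me2 was 12.1 percentage points in place of 27.7. At minimum lengths of 10, 40 and 50 kb, 60.5%, 89.1% and 91.4% stood apart. With ESC domains at or above their median score, 103 stretches (9.55 Mb) were left, 30.1% standing apart, at a median of 271 kb, and CM lacked 8.53% of ESC H3K9me2 outside Lamin B. With CM domains at or above their median score there were 865 stretches (95.5 Mb), 88.8% standing apart, and CM lacked 49.3%. Without ESC domains under 120 kb, 151 stretches (16.0 Mb) were left, 49.7% standing apart, and CM lacked 11.9%. A common 20 kb grid gave 56.2% standing apart, and CM lacked 24.1%. CM lacked 20.4% with CM domains extended by 20 kb, 22.0% with CM gaps under 100 kb merged, 23.7% with Lamin B extended by 50 kb and 23.0% with X included. By construction a longer minimum or a score filter leaves fewer domains; for the other changes the cause was not tested. Of the 64 recomputed values, 37 stayed within 1.5 times (counts and lengths) or within the 95% interval of the main value. For the share that CM lacked, that interval treats 1 kb bins as independent and is therefore narrow. All 8 alternatives of this share fell outside it. Reversal was checked only for the excess of ESC domains without CM H3K9me2. It was not seen at minimum lengths of 10, 40, 50 and 100 kb, at which domain length was not matched between the lists. From 200 kb upward, a limit not among these alternatives, the order was the opposite. No paired analysis was possible because the lists carry no values of single libraries, and for the same reason leaving out a replicate could not be tried. Alternatives on genes and base composition were not run, since no annotation of mm9 was used. The depth is unknown, so what it limits cannot be stated.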
